A study of Mus musculus with 14 samples.

Results

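The genes described here encode 7 transcription factors that pattern the spleen or its vessels: Tlx1, Nkx2-3, Nkx2-5, Tcf21, Wt1, Meis1 and Nr2f2. Probe sets were taken where the array annotation gave 1 of these symbols and no other. This gave 11 probe sets of 6 genes, among 36701 probe sets and 15964 named genes in the series, array controls aside. Nr2f2 had 4, Meis1 had 3, and Nkx2-3, Nkx2-5, Tcf21 and Wt1 had 1 each. No probe set carried the symbol Tlx1 alone, so Tlx1 was not analysed here.

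Total RNA from cells of the mouse spleen was hybridised to oligonucleotide arrays of 3 sets, called A, B and C after the last letter of the sample titles. One fraction was enriched for follicular dendritic cells (FDC), a stromal cell type of B cell follicles that displays antigen, and the other was depleted of them. On sets A and C there were 2 depleted arrays, numbered 1 and 2, and 3 enriched arrays, numbered 1, 2 and 3. On set B there were 2 depleted arrays, numbered 1 and 2, and 2 enriched arrays, numbered 2 and 3. The labels name no strain, age, genotype, allele, agent or treatment, and say nothing of the isolation or of pooled animals. Samples of 1 number recur on the 3 sets, so the sets are not independent replicates.

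The spleen arises from mesenchyme beside the stomach, where Tlx1, Nkx2-5, Wt1 and Tcf21 act in the growth of the organ in mouse embryos and Nkx2-3 in its later vascular and follicular structure. Nkx2-3, Nkx2-5 and Tlx1 are homeobox factors, Meis1 is a homeobox factor of the TALE class that pairs with Pbx and Hox proteins, Tcf21 is a basic helix-loop-helix (bHLH) factor, Wt1 is a zinc finger factor, and Nr2f2 is an orphan nuclear receptor. Several of them are also known elsewhere: Nkx2-5 in heart muscle, Wt1 in kidney and mesothelium, Meis1 in blood stem cells and megakaryocytes, and Nr2f2 in venous and lymphatic endothelium.

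The genes Nkx2-3, Tcf21 and Nr2f2 rose in the enriched fraction at a probe set on set A under each setting tried. The 250 bases before their RefSeq start sites (GRCm38.p6) are shown, since each of these 3 genes kept its call on set A throughout, 5′ to 3′ on the strand of the gene. Capitals mark the E-box CANNTG, the class of site that bHLH factors such as Tcf21 bind.
Nkx2-3, chr19:43612075-43612324, plus strand: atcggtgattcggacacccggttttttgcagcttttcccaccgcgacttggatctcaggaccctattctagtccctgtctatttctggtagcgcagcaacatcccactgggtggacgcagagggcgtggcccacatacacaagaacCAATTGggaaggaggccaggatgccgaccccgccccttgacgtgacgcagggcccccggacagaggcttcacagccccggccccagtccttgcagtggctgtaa
Tcf21, chr10:22820144-22820393, minus strand: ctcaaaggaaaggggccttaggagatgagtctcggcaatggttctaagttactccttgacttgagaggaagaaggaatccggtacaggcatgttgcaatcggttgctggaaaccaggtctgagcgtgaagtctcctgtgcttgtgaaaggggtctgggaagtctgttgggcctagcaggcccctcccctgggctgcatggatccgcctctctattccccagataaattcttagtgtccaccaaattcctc
Nr2f2, chr7:70366747-70366996, minus strand: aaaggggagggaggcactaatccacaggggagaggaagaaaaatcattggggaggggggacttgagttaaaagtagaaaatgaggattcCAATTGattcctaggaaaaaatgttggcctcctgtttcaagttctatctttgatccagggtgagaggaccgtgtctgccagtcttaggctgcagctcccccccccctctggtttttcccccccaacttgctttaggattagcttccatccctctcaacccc
The Nkx2-3 and Nr2f2 windows each held 1 E-box, at 104 and 161 bases before the start site, and both read CAATTG. The Tcf21 window held none. An E-box was present in 66.2% of the 32851 windows of this length in the table. None of the 3 windows held the NK2 core AAGTG (present in 40.7% of all windows), the nuclear receptor half-site AGGTCA (14%), the MEIS core TGACAG (15.9%) or the WT1 site GCGGGGGCG (2.57%), read on both strands. No 2 of these motifs overlapped in the printed windows. These are matches of letters only, and no binding was measured here.

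The deposited values are linear intensities on a scale that the labels do not describe. On set A the depleted arrays had median intensities of 244 and 251, and the enriched ones of 265 to 279. The medians of the fractions lay closer on set B, at 200.2 and 202 against 207 and 209. Set C had 123 and 124 against 126 on all 3 enriched arrays. To be tested, a probe set had to exceed its array's 40th percentile on 2 or more arrays. Of the tested probe sets, 23.1% rose and 17.9% fell on set A (limma, Benjamini-Hochberg adjusted p under 0.05). For set B these shares were 19.4% and 17%, while set C had 9.47% and 8.67%. On set A the rises made up 56.3% of the calls on the deposited scale, 41.5% after quantile normalization and 38.7% once arrays were scaled to the median array. The last scaling moved the median log2 fold change of all tested probe sets from 0.02 to -0.09. All 10 tested FDC markers rose, with a median log2 fold change of 2.15. Of these, the follicle chemokine gene Cxcl13, Coch and Il6 passed the filter only through enriched arrays. The calls of Madcam1, Ltbr and Vcam1 did not hold under every alternative fit, as given below with the lymphoid stroma genes. Endothelial and reticular fibroblast markers had medians of 2.28 and 2.35, so these counts do not set FDC apart from other stromal cells.

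Of the 7 probe sets on set A, 4 passed the filter on dim signal, and all 4 rose, where 23.1% of tested probe sets rose. The rises were those of Nkx2-3, Nkx2-5, Tcf21 and Nr2f2. The 1 probe set on set B, of Nr2f2, rose as well (background 19.4%). Of the 3 on set C, Nr2f2 rose and the 2 of Meis1 did not pass (background 9.47%). The Nr2f2 probe set on set A passed the filter only through its enriched arrays, so a difference was built into its entry, and Nkx2-5 entered with 1 of 2 depleted arrays. The 3 probe sets left out as dim were those of Wt1, 1 of Meis1 and 1 of Nr2f2. Without a filter, every enriched array exceeded every depleted array for all 7 probe sets on set A, where 29.8% of all its probe sets did so. The same held for the 1 on set B (31.1% of all) and for 2 of the 3 on set C (24.5%).

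**Figure D1:**
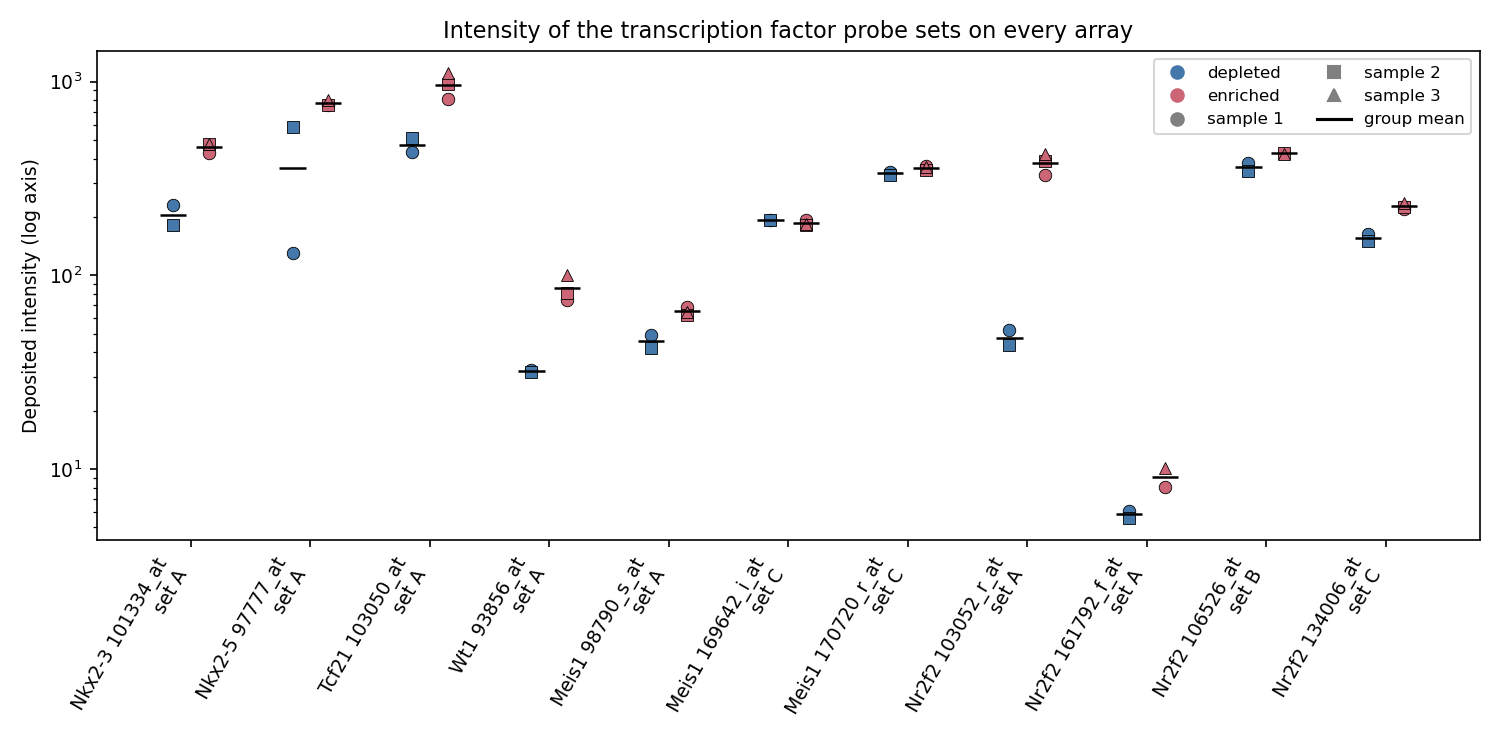
Deposited intensity (log axis) of the 11 probe sets on each array, with depleted arrays in blue, enriched arrays in red, symbols for the sample number and bars for group means. For 10 of the 11 probe sets each enriched array lay above each depleted array, the exception being Meis1 169642_i_at, and depleted sample 1 of Nkx2-5 stood at 131 against 583 in depleted sample 2.

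Nkx2-3, the homeobox factor needed for the Madcam1-bearing lining cells of the marginal sinus in mouse, rose. Its probe set 101334_at gave 230.04 and 182 in depleted samples 1 and 2, and 427, 474 and 475 in enriched samples 1, 2 and 3. The groups were far apart, with the lowest enriched array well above the highest depleted one. The means were 206 ± 33.9 (SD, n = 2) and 459 ± 27.4 (SD, n = 3), a ratio of 2.23. On the fitted scale, log2(intensity + pseudocount), changes of dim genes are understated. There the rise was 1.86-fold (log2 fold change 0.90, SE 0.09, 95% interval 1.61- to 2.15-fold, limma adjusted p = 9.04e-05). The depleted arrays placed this probe set at the 40.3 and 48.2 percentiles of the array, near the filter, and the enriched arrays at 64.1 to 67.7. With the fixed pseudocount of 16 the rise was 2.15-fold.

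Tcf21, the bHLH factor of mesenchyme in spleen, lung, kidney and heart, rose by a similar fold from a brighter level. Its probe set 103050_at gave 433 and 511 in depleted samples 1 and 2, and 811, 978 and 1108 in enriched samples 1, 2 and 3. All arrays of both fractions lay above the filter, at percentiles 67 and 71.5 in the depleted and 82.3 to 88.3 in the enriched. The means were 472 ± 55.3 (SD, n = 2) and 966 ± 149 (SD, n = 3). The rise was 1.87-fold (log2 fold change 0.91, SE 0.13, 95% interval 1.53- to 2.29-fold, limma adjusted p = 0.000581).

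Nkx2-5, the homeobox factor known for heart formation and also made in the embryonic spleen, rose on average, but its depleted arrays differed widely. Probe set 97777_at gave 131 in depleted sample 1 and 583 in depleted sample 2, and 761, 753 and 806 in enriched samples 1, 2 and 3. The enriched arrays lay close together, and depleted sample 2 lay nearer to them than to depleted sample 1. The depleted arrays differed 4.46-fold, and 1 of the 7889 tested probe sets on set A, of the cell cycle inhibitor gene Cdkn1b (named for this count, after its values were seen), differed more between these arrays. The rise was 2.25-fold (log2 fold change 1.17, SE 0.38, 95% interval 1.23- to 4.10-fold, limma adjusted p = 0.0381). Without depleted sample 1 the log2 fold change was 0.36 (adjusted p = 0.0481) and without depleted sample 2 it was 1.97 (adjusted p = 1.13e-05). Without enriched sample 1, 2 or 3 the call was lost, with adjusted p = 0.0574, 0.0718 and 0.0856.

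Nr2f2, the nuclear receptor COUP-TFII that sets venous fate in endothelium, was read by 4 probe sets that differed in size of change. The probe set 103052_r_at on set A gave 52.0 and 43.4 in depleted samples 1 and 2, and 331, 390.5 and 425 in enriched samples 1, 2 and 3. The groups did not overlap, and the depleted arrays were dim, at percentiles 8.88 and 11.2 against 56.3 to 64.5 in the enriched. The ratio of mean intensities was 8.01, while the fitted rise was 3.44-fold (log2 fold change 1.78, SE 0.09, limma adjusted p = 2.3e-06). With a pseudocount of 16 in place of 88.5 the fitted rise was 6.23-fold, so its size depends on the pseudocount.

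On set C the Nr2f2 probe set 134006_at gave 163 and 149.85 in depleted samples 1 and 2, and 221, 227 and 236 in enriched samples 1, 2 and 3. The groups were apart and all arrays lay above the filter. The rise was 1.34-fold (log2 fold change 0.42, SE 0.05, 95% interval 1.23- to 1.46-fold, limma adjusted p = 0.000695). On set B the probe set 106526_at gave 381 and 346 in depleted samples 1 and 2, and 428 and 425 in enriched samples 2 and 3. The rise there was 1.14-fold (log2 fold change 0.19, SE 0.06, 95% interval 1.03- to 1.26-fold, limma adjusted p = 0.0423). This last call was lost with either other scaling (adjusted p = 0.0746 after quantile normalization and 0.104 on the median array's scale). It was also lost without depleted sample 2 (0.285), enriched sample 2 (0.0868) or enriched sample 3 (0.0742). The 4th probe set, 161792_f_at on set A, gave 6.06 and 5.61 in the depleted samples and 8.09 and 10.1 in enriched samples 1 and 3, with no value for enriched sample 2. It lay below the 1st percentile on each of these arrays and was not tested.

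Meis1, the TALE homeobox factor of blood stem cells and megakaryocytes, did not pass at either tested probe set. On set C the probe set 170720_r_at gave 343 and 329.5 in depleted samples 1 and 2, and 368, 352 and 361 in enriched samples 1, 2 and 3. The lowest enriched array was just above the highest depleted one. The log2 fold change was 0.09 (SE 0.05, limma adjusted p = 0.3), with a 95% interval from 0.979- to 1.15-fold. The probe set 169642_i_at gave 192 and 193 in the depleted and 193, 182 and 185 in the enriched samples, and the groups overlapped. Its log2 fold change was -0.04 (SE 0.05, limma adjusted p = 0.659), with a 95% interval from 0.904- to 1.05-fold. On set A the probe set 98790_s_at was dim, with 49.5 and 42.3 in the depleted and 68.4, 62.5 and 64.9 in the enriched samples, at percentiles from 8.54 to 13.8. With no filter it had a log2 fold change of 0.19 (limma adjusted p = 0.0148).

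Wt1, the zinc finger factor of kidney, gonad and mesothelium that acts in spleen growth, was dim in both fractions. Its probe set 93856_at gave 32.4 and 31.6 in depleted samples 1 and 2, and 74.8, 81.4 and 101 in enriched samples 1, 2 and 3. The groups did not overlap, yet no array reached the filter, with percentiles from 5.97 to 23.2. The ratio of means was 2.68, and with no filter the log2 fold change was 0.53 (SE 0.07, limma adjusted p = 0.00037), where 17.1% of the 12422 unfiltered probe sets of set A rose.

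The array values carry no detection call, so a list of genes of other organs, such as the crystallins of the lens and the protamines of sperm, served as a yardstick for dim signal. On set A the 34 probe sets of these genes had, averaged over arrays, a median percentile of 28.3 with a range from 1.48 to 82.8. Of them 9 passed the filter, and of these 1 rose and 1 fell, so calls also occurred among genes of other organs. The Wt1, Meis1 98790_s_at and Nr2f2 161792_f_at values lay under this median on each array. The depleted arrays of Nr2f2 103052_r_at did too. The enriched arrays of Nkx2-3, Nkx2-5, Tcf21 and Nr2f2 103052_r_at lay above the median but inside the range, apart from Tcf21, which exceeded the range in enriched samples 2 and 3. On set C the 13 panel probe sets had a median percentile of 32.1 and a range from 5.86 to 90.1, and of the 6 tested none was called. The Meis1 and Nr2f2 probe sets there, at percentiles from 57.8 to 85.7, lay above the median but inside the range. On set B the 3 panel probe sets ranged from 0.62 to 8.38, and Nr2f2 106526_at lay above them at 69.5 to 76.1. Probe sets differ in how well they bind, so these percentiles place a signal on its array and do not order the RNA of different genes.

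**Figure D2:**
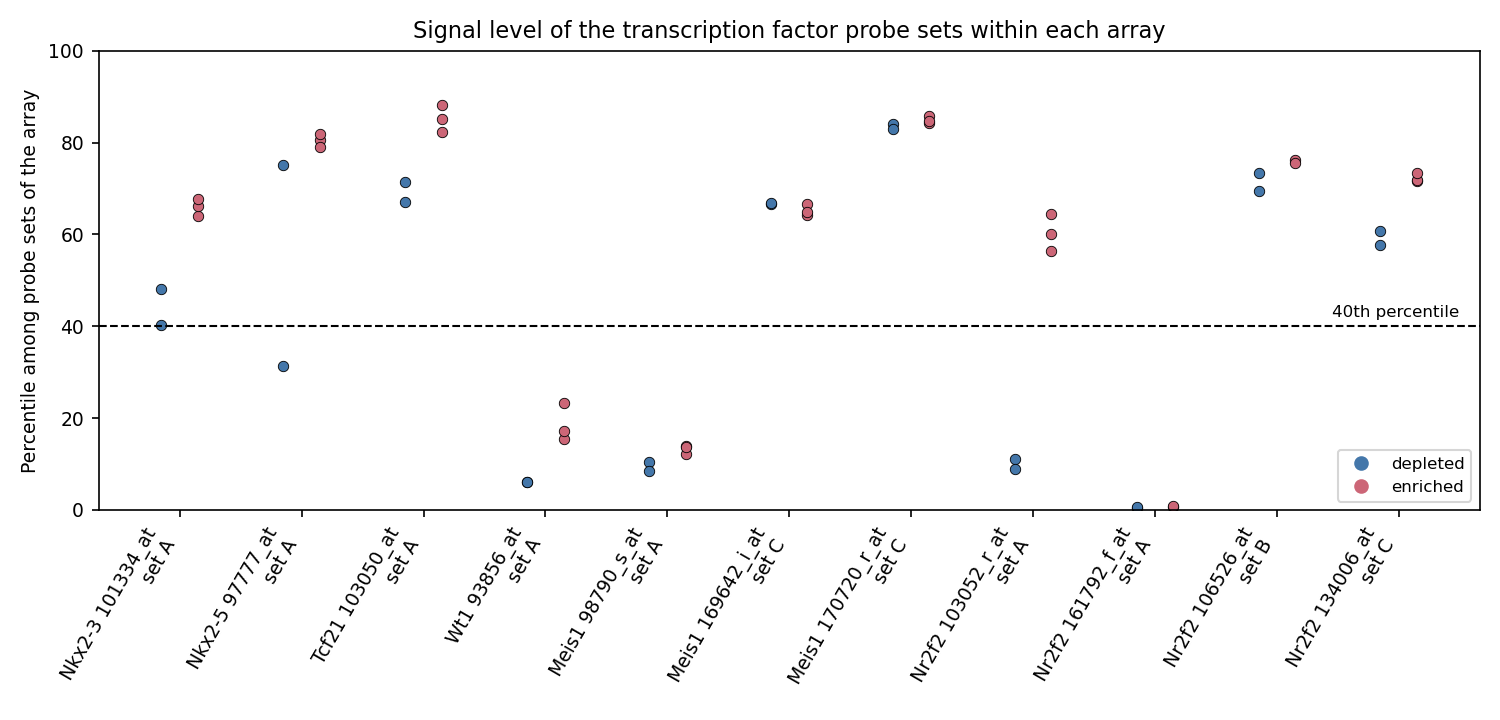
Percentile of each of the 11 probe sets among the probe sets of its array, with depleted arrays in blue, enriched arrays in red and the 40th percentile as a dashed line. Nr2f2 103052_r_at moved from percentiles 8.88 and 11.2 to between 56.3 and 64.5, while Wt1 stayed at or under 23.2.

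The same fit gave the genes that surround these factors, from lists chosen with earlier results of these data known. Of the other regulators of spleen development, Barx1, Sox11 and Isl1 were tested and none passed, with log2 fold changes of 0.14, 0.07 and 0.00. Nkx3-2 lay below the filter. Of 7 tested homeobox partners, read over the 3 sets, 1 rose, 1 fell and 5 did not pass. Of all tested probe sets, 23.1%, 19.4% and 9.47% rose on sets A, B and C, and 17.9%, 17% and 8.67% fell. Pbx3, a TALE partner of Meis1, rose 1.18-fold (limma adjusted p = 0.0374), and Hoxb4 fell by 0.27 on the log2 scale (adjusted p = 0.0423). The Pbx3 call was lost with no filter (0.0532), under quantile normalization (0.222), on the median array's scale (0.236), with the replicate number as a block (0.142), and on leaving out either depleted sample (0.0739 and 0.3) or enriched sample 3 (0.121). The Hoxb4 call was lost with the block (0.121) and without depleted sample 2 (0.258), enriched sample 1 (0.0655), enriched sample 2 (0.0697) or enriched sample 3 (0.123).

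Of 5 tested family members of the factors, 1 rose and 4 did not pass. This share of rises was near that of all tested probe sets on set A (23.1%), while Msc was read on set C (9.47%). Nr2f6, a nuclear receptor of the Nr2f family, rose 1.33-fold (limma adjusted p = 0.0028), with means of 447 ± 14 (SD, n = 2) and 626 ± 39.5 (SD, n = 3). Tlx2 and Tlx3, relatives of Tlx1, had log2 fold changes of -0.18 and -0.05, Nkx2-9 of -0.03 and Msc, a relative of Tcf21, of -0.07. Tlx2 was called as a fall under quantile normalization (log2 fold change -0.28, adjusted p = 0.0272) and on the median array's scale (-0.30, 0.0164), and Tlx3 turned to 0.02 without enriched sample 2.

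Of 9 tested bHLH and Id genes listed alongside Tcf21, 6 rose and 3 did not pass. Their median log2 fold change was 0.52 against 0.02 over all tested probe sets of set A. Tcf4 was read on set B, Tcf3 on set C and the others on set A. Of all tested probe sets, 23.1% rose on set A, 19.4% on set B and 9.47% on set C. The 4 Id genes, whose products bind bHLH proteins and keep them off DNA, all rose. Id1 had means of 446 ± 182 (SD, n = 2) and 2768 ± 282 (SD, n = 3), a rise of 5.49-fold. Id3 rose 4.23-fold, Id4 1.94-fold and Id2 1.69-fold. Id4 passed the filter only through enriched arrays, which built a difference into its entry. Twist1 and the E protein gene Tcf4 also rose, while Tcf3, Tcf12 and Twist2 did not pass.

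Of 9 tested retinoic acid genes, a pathway that Tlx1 restrains in the mouse spleen primordium, 2 rose and 7 did not pass. This share of rises was near the background of 23.1% on set A and 19.4% on set B. On set C, where Aldh1a2, Aldh1a3, Rarb and Crabp2 were read, the background was 9.47%. The receptor gene Rxra rose 1.79-fold on set B (limma adjusted p = 4.56e-06), and Aldh1a1, which makes retinoic acid, rose 1.62-fold on set A (adjusted p = 0.000146). All 6 tested lymphoid stroma genes rose, of which Cxcl13 passed the filter only through enriched arrays. All but Icam1 were also counted among the FDC markers, so this is mostly a recount. Cxcl13 rose 11.9-fold and the TNF receptor gene Tnfrsf1a 1.95-fold. The adhesion molecule genes Icam1 and Vcam1 rose 4.73- and 1.65-fold. Madcam1, named outside the rule for its known tie to Nkx2-3, rose 1.27-fold (limma adjusted p = 0.0117). Its call was lost under quantile normalization (0.0538), with scaling to the median array (0.0869), and without depleted sample 1 (0.118) or 2 (0.0544), and that of Vcam1 without depleted sample 1 (0.113). The call of Ltbr, the lymphotoxin beta receptor gene, was lost under quantile normalization (0.203), on the median array's scale (0.274) and with the block (0.0835). It was also lost on leaving out either depleted sample (0.173 and 0.169), enriched sample 2 (0.0535) or enriched sample 3 (0.0553).

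Of 13 tested genes of venous, arterial and lymphatic endothelium, 11 rose and 2 did not pass, with a median log2 fold change of 0.92. Nrp2 and Dll4 were read on set B, Jag1 on set C and the others on set A. The shares of all tested probe sets that rose were 23.1% on set A, 19.4% on set B and 9.47% on set C. Efnb2, an arterial ephrin ligand gene, rose 7.60-fold, and Nrp1, a coreceptor gene for VEGF, 7.05-fold. The Notch target gene Hes1 rose 4.74-fold, and Flt4, the VEGF receptor gene of lymphatic endothelium, 4.25-fold. Of the listed genes, Nrp2, Flt4 and Efnb2 passed the filter only through enriched arrays, which built a difference into their entry. Prox1, the lymphatic factor that works with Nr2f2, did not pass (log2 fold change 0.05, limma adjusted p = 0.655), and its sign turned with either other scaling (-0.05 in both).

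**Figure D3:**
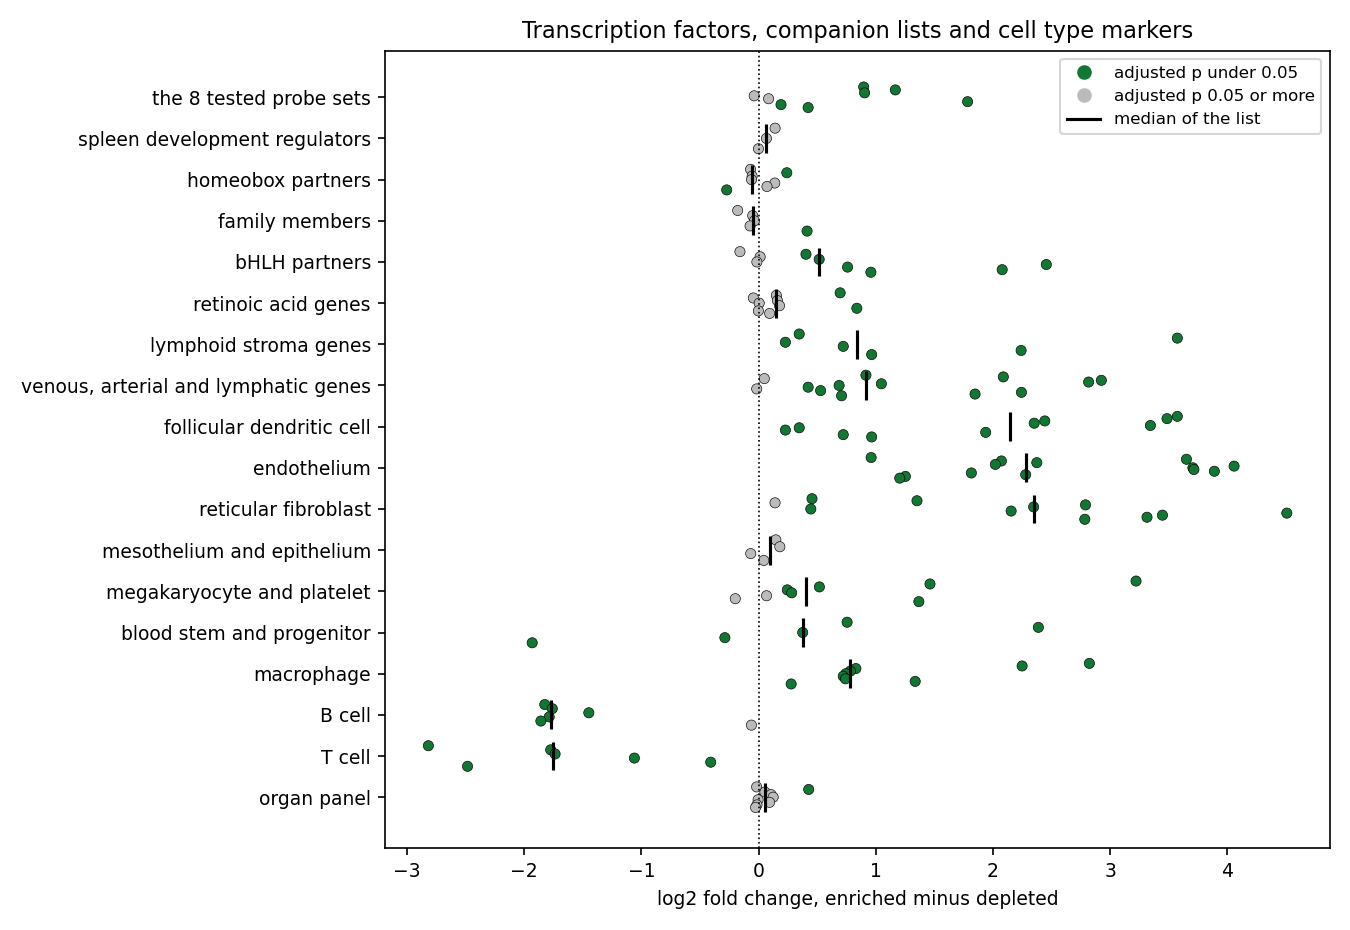
Log2 fold change (enriched minus depleted, log2(intensity + pseudocount) scale) of the 8 tested probe sets of the transcription factors and of the brightest tested probe set of each gene of the other lists. Green points had an adjusted p under 0.05, and bars are list medians, which ran from -1.77 for B cells to 2.35 for reticular fibroblasts.

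Markers of several cell types moved with these rises. Of all tested probe sets, 23.1% rose on set A, 19.4% on set B and 9.47% on set C, and 17.9% fell on set A. All 13 tested endothelial markers rose, and their sum over 10 genes on set A was 1861 to 1938 on depleted arrays and 18581 to 20878 on enriched ones. Of 11 tested reticular fibroblast markers 10 rose, with a sum over 12 genes of 3177 to 3229 against 15232 to 17497. The 10 FDC markers summed to 5950.4 to 6871 against 23224 to 27626, and the 9 macrophage markers, all of which rose, to 9286 to 11053 against 21017 to 25077. Of 6 B cell markers 5 fell and Pax5 did not pass, with a sum of 20143 to 20328 against 6136 to 7934. All 6 T cell markers fell, from 4686 to 5291 down to 1183 to 1289. Of the tested markers, 6 endothelial, 5 fibroblast, 3 FDC and 1 macrophage marker passed the filter only through enriched arrays and 2 T cell markers only through depleted ones, which built a difference into their entry. The macrophage marker Adgre1 lost its call under quantile normalization (limma adjusted p = 0.155), on the median array's scale (0.162), with the block (0.0789), on leaving out either depleted sample (0.215 and 0.0921) and without enriched sample 3 (0.0917). Without depleted sample 1 the macrophage list also lost Vcam1 (0.113) and the fibroblast list Col6a1 (0.0623). No marker of these lists was at 0 on any array of set A. The share of each cell type in the rises of Nkx2-3, Nkx2-5, Tcf21 and Nr2f2 was not tested, and in such bulk RNA fewer cells of a type and less RNA per cell cannot be told apart.

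For Meis1, 6 of 8 tested megakaryocyte and platelet markers rose, and Gata1 and Nfe2 did not pass. Ppbp was read on set B, Itga2b and Tubb1 on set C and the others on set A. The shares of all tested probe sets that rose were 19.4% on set B, 9.47% on set C and 23.1% on set A. Ppbp, Gp1bb and Tubb1 passed the filter only through enriched arrays. Gp5 and Gp9 lost their calls under quantile normalization (limma adjusted p = 0.125 and 0.172), on the median array's scale (0.135 and 0.184), without depleted sample 1 (0.153 and 0.0768) and without depleted sample 2 (0.0983 and 0.187). Gp9 also lost its call with the block (0.0632) and without enriched sample 3 (0.0549). Nfe2 was called as a fall with either other scaling (0.0455 and 0.031), where the sign of Gata1 turned as well (-0.03 and -0.04). The largest rise was that of Ppbp, a chemokine gene of platelets (9.33-fold). Of the listed genes, set A held Gp1bb, Gp5, Gp9, Gata1, Nfe2 and Pf4, which did not pass the filter. The sum over these 6 genes was 2039 to 2151 on depleted arrays and 2286 to 2606 on enriched ones. Ppbp, Itga2b and Tubb1 were read on the other sets and are not in this sum. Of 5 tested blood stem and progenitor markers, Cd34, Kit and Gata2 rose and Flt3 and Myb fell (Gata2 with limma adjusted p = 0.0534 on the median array's scale and 0.108 without depleted sample 1, Flt3 with 0.0575 and 0.128 without depleted samples 1 and 2 in turn), with a sum over 8 genes of 2217 to 2347 against 2850 to 2989. The tested stem and progenitor markers were read on set A, where 23.1% of tested probe sets rose and 17.9% fell. Of these markers, Cd34 passed the filter only through enriched arrays and Myb only through depleted ones. This built a difference into their entry. For Wt1, none of the 4 tested mesothelial and epithelial markers passed (median log2 fold change 0.10). Msln, the mesothelin gene of mesothelium, lay below the filter. That sum over 8 genes was 1729 to 1747 against 1726 to 2147. The part of these cell types in the Meis1 and Wt1 values was not tested.

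The genes whose arrays ran closest to each factor were found by the root mean square difference of log2 values, centred on the depleted mean, over the 5 arrays of set A and 6750 probe sets. Closest to Nkx2-3 were Slc20a1 (0.0312), a phosphate transporter gene, Inpp5a (0.0442) and Socs1 (0.0459), a suppressor of cytokine signalling. Closest to Tcf21 were the receptor kinase gene Axl (0.0464), Dipk2a (0.0549) and the Wnt antagonist gene Frzb (0.0568). Closest to Nr2f2 103052_r_at were Septin4 (0.0439), Aplp2 (0.0463) and Map2k3 (0.0545). For Nkx2-5 the closest, Actn1 (0.253), Hexa (0.324) and Cdkn1b (0.345), were less close than for the other factors. On set C the closest to Nr2f2 were St18 (0.0188), Efna1 (0.025) and Gstm1 (0.0324), and over the 4 arrays of set B they were Kctd20 (0.00782), Eif2b3 (0.011) and Ccdc124 (0.0128). With 4 or 5 arrays in 2 groups, this measure is a description and carries no test.

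**Figure D4:**
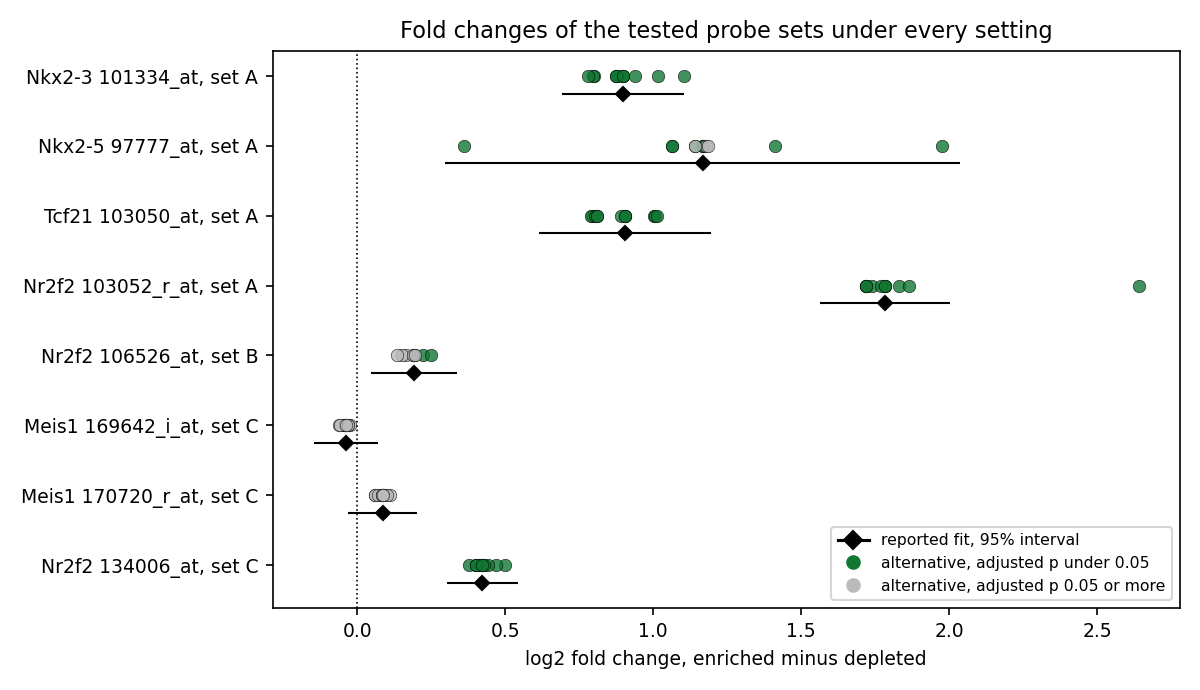
Log2 fold change of the 8 tested probe sets in the reported fit (diamond, with its 95% interval) and under each alternative (circles, green where the adjusted p was under 0.05). Nkx2-3, Tcf21, Nr2f2 103052_r_at and Nr2f2 134006_at passed under each setting, Nkx2-5 and Nr2f2 106526_at under some, and Meis1 under none.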

How the data were processed

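Per the labels, total RNA was hybridised. For each array set the authors deposited linear intensities, 1 per probe set and array, and the summary, background and scaling steps behind them are not stated in those labels. After 66 array controls per table were left out of 12488, 12477 and 11934 probe sets, 36701 remained. On set A, 893 probe sets lacked a value in enriched sample 2 and entered with the other 4 arrays. Probe sets were named through the platform annotation, and symbols were brought up to date by Entrez identifier with the GRCm38.p6 gene table. Of those with 1 symbol (10833, 10581 and 7717), the identifier was found for 10817, 10550 and 7677, while 396, 178 and 150 had several symbols and 1193, 1652 and 4001 had none.

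Each set was fitted alone on the deposited scale, as trimmed means of its arrays (2% trimmed) differed by at most 1.08-fold. The log2 of intensity plus a pseudocount (the 20th percentile of positive values, 88.5 on A, 81.2 on B and 53.1 on C) was fitted with limma 3.58.1 in R 4.3.3 (lmFit, eBayes with trend), two-sided, with Benjamini-Hochberg adjustment over the 7889, 7792 and 7370 tested probe sets, and called at an adjusted p under 0.05. An exact permutation test over 2 against 3 samples cannot go below 0.1, or 0.333 for 2 against 2. The labels do not say whether samples came from separate animals, and the p-values reflect spread among these samples only, which may be technical. The small number of arrays limits precision. The script was tested on simulated data.

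For a list, the brightest tested probe set stood for a gene, taken from the set where it ranked highest. Up to 4 passing genes per list with the largest change, and the 3 genes of closest profile per rising probe set, were named. The genes and lists were chosen with earlier results of these data known. Tables of promoters came from RefSeq (GRCm38.p6), with an entry for 6 of the 7 genes, all but Wt1.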

Additional observations from a re-analysis of the deposited data

How the results depend on the processing

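Each set was refitted with a fixed pseudocount of 16, no filter, quantile normalization, scaling to the median array, no trend, adjustment over all 3 sets, each sample left out and, on sets A and C, the replicate number as a block. Of 94 refits of single probe sets, 86 kept direction and call, 8 kept the direction and lost the call, and none reversed. The 8 were 3 of Nkx2-5 and 5 of Nr2f2 on set B. Refits with no filter, no trend or adjustment over all sets leave the fold change as it was, so they could not reverse it. For the Meis1 probe sets, what was kept was that they did not pass. The number of called probe sets on set B was 1, and 0 with quantile normalization, 0 with scaling to the median array, and 0 to 1 with a sample left out. On set A it was 4, with 6 when no filter was used, which added Wt1 and Meis1, and 3 to 4 with a sample left out. On set C it was 1 throughout. Refits that leave 1 array in a group assume that it varies like the other group. With the replicate block 4 were called on set A and 1 on set C, and the log2 fold change of Nkx2-5 was 1.14 (limma adjusted p = 0.00186). Enriched sample 3 has no partner in the block, so the fold changes equal those without that sample. For Nkx2-5 the limma adjusted p without it was 0.0856, so the lower value under the block does not make this call firmer. Correlations of same-numbered deviations were 0.03 and 0.06 on set A and -0.31 and -0.15 on set C. The deviations of 2 depleted arrays are mirror images, and whether same-numbered samples are related was not established. For set B no paired analysis was possible because it shares 1 replicate number between its groups. Counts over all probe sets moved more: on set A 1414 fell, or 2166 with scaling to the median array, and on set C 698 rose and 639 fell, or 407 and 457 with the block. The cause was not tested. Probe sets near the bottom of the arrays limit what can be said of Wt1 and of the dim Meis1 and Nr2f2 probe sets.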
